A study of Drosophila melanogaster with 13 samples.

Results

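Secondary cells lacking the micropeptide MSAmiP (miP) were compared with wild-type secondary cells of the Drosophila melanogaster male accessory gland. The comparison holds 6 of the 13 libraries of the series, 3 from each genotype, chosen by their labels, and of the 16727 genes counted 8222 had enough counts to be tested. Wild-type males carried D1:GAL4 and UAS-GFP, which mark secondary cells with GFP. The miP males carried both with delta MSAmiP, and 3 libraries of iab-6cocuD1 mutants (D1) with the same driver and reporter are given beside them. All males were aged 5 to 11 days, and the glands were dissected, protease-treated and sorted by FACS. From 2 ng of RNA, cDNA was primed with poly(dT), amplified and sequenced as single reads of 100 nt, with no strand information kept. The labels do not say how many males were pooled, nor whether the lines share a genetic background, so a difference between lines and an effect of the deletion cannot be told apart. The labels number the replicates without saying whether they came from separate sorts, so p-values measure the spread between these libraries.

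Secondary cells are large, vacuole-filled epithelial cells at the gland tip that secrete part of the seminal fluid and are needed for the lasting response of females to mating. Their identity depends on the Hox gene Abd-B of the Bithorax complex, and they transcribe the iab-8 unit of the same complex, whose male-specific form in these cells, msa, carries a short open reading frame that encodes the micropeptide. The comparison asks what the loss of the peptide, rather than of the transcript, does to the RNA of the cell.

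In units of 1e6 counts, the miP libraries held 18.21 to 20.82 and the wild-type libraries 21.18 to 26.09. All 10 markers of secondary cells were detected in both genotypes, and they summed to 385400 to 411300 CPM (counts scaled to a library total of 1000000) in wild type and 391400 to 491300 in miP. Markers of the neighbouring main cells, 20 genes, summed to 86.9 to 1110 CPM in wild type and 164 to 761 in miP, with Acp95EF at 0 counts. Muscle sheath (5.40 to 66.5 against 12.6 to 20.4 CPM), testis (4.93 to 5.18 against 0.824 to 11.1) and fat body (0.298 to 1.57 against 0.220 to 1.29, AkhR at 0) were low. Hemocyte genes summed to 261 to 308 and 236 to 349 CPM (He at 0), ejaculatory duct genes to 270.2 to 274 and 271 to 504, and tracheal genes to 13.9 to 15.1 and 17.7 to 29.2. Each ejaculatory duct sum lay close to the level of a single gene, Ance. It held 272.3, 268.5 and 268.6 CPM across the wild-type libraries, against 267.4, 503.4 and 357.8 across the miP libraries. Ance is on the list of prohormone processing genes used below, so these sums do not show RNA from duct cells. In bulk RNA, fewer cells of a type and less RNA per cell cannot be told apart.

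In the fit of all 9 sorted libraries, none of the genes of the Bithorax complex, where the deletion lies, was called. The iab-8 unit, which includes msa, counted 818, 720 and 879 CPM in miP libraries, against 955, 760 and 804 in wild-type libraries. The groups overlapped, and the log2 fold change was -0.27 ± 0.21 (SE; 95% interval -0.73 to 0.20). A count over the whole unit cannot show whether the short coding stretch is missing, so the genotype labels were not checked by it. The Hox gene abd-A stood at 0.23 ± 0.28, Abd-B at 0.16 ± 0.26 and Ubx, the most abundant of the complex, at 0.07 ± 0.25 on the log2 scale. The non-coding bxd, with 1.404, 1.699 and 1.303 CPM in wild-type libraries against 3.17, 2.98 and 3.84 in miP libraries, did not overlap between the groups, yet its change of 0.96 ± 0.44 had an adjusted p of 0.940. The non-coding iab-4 (0.11 ± 0.26) lies within the span of iab-8 on the other strand. With no strand information, reads may be shared where their transcripts overlap, which was not examined. Of the 9 genes 0 passed the threshold in this fit, and the intervals of 6 lay within 1 log2 unit of no change. Replicate 1 of miP and of D1 differed from the other mutant libraries by transcript length, and the fit was repeated without both. There iab-8 stood at -0.42 ± 0.12 (adjusted p = 0.0512, edgeR). With a correction for transcript length added, iab-8 was called lower at -0.63 (adjusted p = 0.0118) and the non-coding CR45750 higher at 1.51 (adjusted p = 0.0434).

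Across all genes, 2 were higher and 5 lower in miP at an adjusted p of 0.05 or less (edgeR quasi-likelihood test, Benjamini-Hochberg), which is 0.0243% and 0.0608% of the genes tested, and 0.0851% in all. DESeq2 called 9 and 24. Without any scaling beyond library totals, which raised the median of all genes by 0.23 log2 units, 0 were higher and 3 lower, and with RLE or upper-quartile factors 2 were higher and 3 lower. At an unadjusted p under 0.05 there were 292 genes, or 3.55%. Of the 7 called genes, 3 lay on X, 2 on 3L and 2 on 3R, and 0 on the other arms. The unadjusted p was under 0.05 for 4.83% of tested genes on X, 3.93% on 3L, 3.87% on 3R, 3.04% on 2R and 2.21% on 2L.

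**Figure D1:**
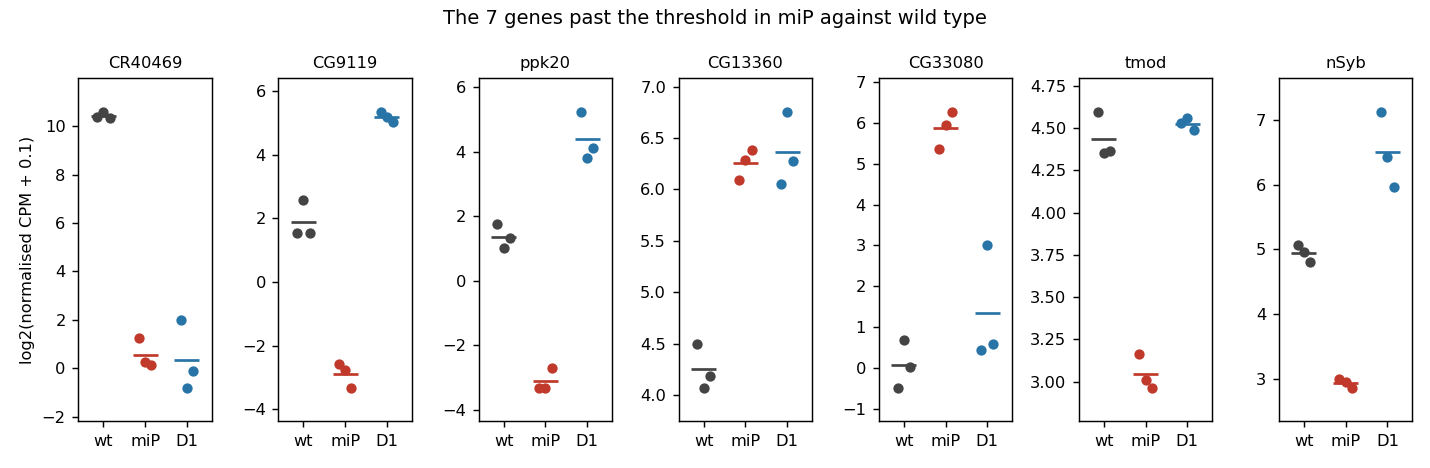
Levels of the 7 called genes, as log2(normalised CPM + 0.1), in each library (points; bars are means) of wild type (wt), miP and D1, with a separate vertical scale for each gene. No wild-type and miP libraries overlap; D1 sits with miP for CR40469 and CG13360, above wild type for CG9119, ppk20 and nSyb, and with wild type for tmod.

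The non-coding RNA CR40469 was nearly lost. It is annotated as a single stretch of 214 nt on X (dm6, 122493 to 122706), near the tip of the chromosome, and its function is not described in the annotation. The 3 wild-type libraries had 1114, 1257 and 1018 CPM, against 1.83, 1.10 and 1.04 in the 3 miP libraries. Every miP library was far below every wild-type library. The log2 fold change was -9.91 ± 0.87 (adjusted p = 0.00281). The D1 libraries held 3.53, 0.722 and 1.31 CPM, and D1 minus miP was 0.22 on the log2 scale (adjusted p = 0.899), which does not show that they were equal. In the anti-GFP immunoprecipitations of ribosomes (TRAP), from males of the genotype UAS GFP-RPL10Ab, D1:GAL4, the gene stood at 199, 1.075 and 0.688 CPM, and at 778 in the single UAS GFP control. Libraries with this one label thus differed widely in it, and the highest of them was still below every wild-type sorted library. The next tested gene, RhoGAP1A, 4.74 kb away, stood at 0.13 ± 0.48.

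CG9119 and ppk20 fell from low levels to almost nothing, and both were higher in D1 than in wild type. CG9119 (3L, 1203316 to 1204795) had 2.34, 4.82 and 2.26 CPM in wild-type cells, against 0.0538, 0.0480 and 0 in the miP libraries. This is 216 counts against 2, a CPM ratio of 87.9 (exact 95% interval 24.1 to 731, counting error only). The log2 fold change was -6.51 ± 0.60 (adjusted p = 0.00281). In D1 it stood at 37.0, 55.8 and 51.2 CPM, above every wild-type library. ppk20, a pickpocket-family subunit of DEG/ENaC sodium channels (3R, 29666814 to 29668877), had 2.72, 1.56 and 1.92 CPM in the wild-type libraries, against 0, 0 and 0.0549 in the miP libraries. This is 147 counts against 1, a ratio of 119.7 (21.2 to 4759), and a log2 fold change of -6.73 ± 0.80 (adjusted p = 0.0198). In D1 it stood at 34.12, 21.04 and 27.2 CPM, again above wild type without overlap.

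nSyb, the synaptobrevin of synaptic vesicles, and tmod, which caps the pointed ends of actin filaments, fell less far. nSyb (3L, 1630348 to 1637752) had 27.9, 25.1 and 22.3 CPM in wild-type cells, against 6.29, 7.69 and 7.58 without the micropeptide. The groups were well apart, with a log2 fold change of -2.03 ± 0.29 (adjusted p = 0.0487). The 6 other neuronal markers counted together stood at 8.34, 6.42 and 9.54 CPM in wild-type libraries, against 8.38, 8.60 and 8.62 in miP libraries, so the fall in nSyb was not shared by their sum. In D1 nSyb stood at 126, 131 and 98.1 CPM. tmod (3R, 30532607 to 30578905) held 20.0, 16.5 and 16.3 CPM in wild type against 7.04, 8.02 and 8.13 in miP. Its log2 fold change was -1.41 ± 0.20 (adjusted p = 0.0481), with no overlap, and in D1 it held 20.8, 35.6 and 35.2 CPM. TMM scaling factors were 0.905, 1.52 and 1.58 in D1 libraries, against 0.831, 0.813 and 0.798 in wild-type libraries. Plain CPM thus place D1 higher beside wild type than normalised CPM do. The normalised means of tmod were 22.9 in D1 and 21.6 in wild type.

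CG13360 and CG33080, both on X and of functions not given here, were the genes that rose. CG13360 (787855 to 790089) had 18.6, 13.5 and 14.5 CPM in wild-type cells and rose to 54.1, 78.9 and 87.8 in miP cells. The miP libraries were all above wild type, with a log2 fold change of 2.00 ± 0.25 (adjusted p = 0.0198). D1 was as high, at 59.8, 165 and 122 CPM. CG33080 (5708559 to 5717778) rose from 0.510, 1.23 and 0.728 CPM to 32.7, 62.5 and 81.7 (log2 fold change 5.89 ± 0.79, adjusted p = 0.0338). In D1 it held 1.14, 12.2 and 2.20 CPM, below every miP library, and D1 differed from miP by -4.07 (adjusted p = 0.00498).

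The D1 libraries share the wild-type libraries with this comparison, so the values of both mutants stand side by side and their difference was tested directly. For CG9119 the D1 fold change against wild type was 3.25 ± 0.37 (adjusted p = 5.81e-04), for ppk20 3.17 ± 0.47 (0.00216) and for nSyb 1.64 ± 0.29 (0.00558). D1 minus miP was 9.76, 9.90 and 3.67 in the same order (adjusted p = 1.49e-05, 5.03e-05 and 7.88e-05). For tmod D1 did not stand apart from wild type (0.08 ± 0.20, adjusted p = 0.873) and D1 minus miP was 1.49 (adjusted p = 0.00116). For CG13360 the D1 value was 2.14 ± 0.25 (adjusted p = 5.88e-04), and D1 minus miP was 0.13 (adjusted p = 0.805). Of all tested genes, 9.77% were called between D1 and wild type and 10.5% between D1 and miP.

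Which genes were called depended on the libraries in the fit. With only the wild-type and miP libraries fitted, all 7 were called (adjusted p 3.49e-06 to 0.0434, edgeR). Each wild-type or miP library was also left out in turn, with all D1 libraries kept in the fit. The adjusted p of both CR40469 and CG9119 then ran from 0.00648 to 0.0539. It was over 0.05 only without miP replicate 2. ppk20 kept an adjusted p under 0.05 only without wild-type replicate 2 (0.0479) and reached 0.160 without miP replicate 3. CG13360 (0.0953 to 0.247), CG33080 (0.0968 to 0.261), tmod (0.153 to 0.348) and nSyb (0.187 to 0.346) passed in none of the 6 fits, whichever library was left out. The direction of each of the 7 held in every such fit. Without miP replicate 1 and D1 replicate 1 all 7 were called, as they were without D1 replicate 1 alone. Under RLE and upper-quartile factors the adjusted p of tmod was 0.0582 and 0.0560 and that of nSyb 0.0646 and 0.0843, and with all 13 libraries in the fit that of CR40469 was 0.197 and that of tmod 0.0881. With library totals alone CG13360 (0.178), CG33080 (0.0813), tmod (0.818) and nSyb (0.0563) were not called. The same 4 did not pass a test against a log2 fold change of 1 (treat; 0.268, 0.0591, 1 and 0.602). With the length correction over all 9 libraries nSyb was not called (0.220). Without the expression filter tmod (0.0820), and with a filter of 5 CPM in 3 libraries nSyb (0.0556), lost the call.

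Further genes stood without overlap between the groups but did not pass; 14% of tested genes showed no overlap, so this alone marks little. The nearest to the threshold was CG7582, which lies on the same strand some 11 kb beyond ppk20, and its wild-type libraries had 252, 205 and 223 counts and its miP libraries 31, 30 and 51. It stood at -2.52 ± 0.38 (adjusted p = 0.0526). CG10559 gave -2.20 ± 0.36 (adjusted p = 0.109) and spidey, listed as CG1444 and known as a steroid dehydrogenase, -1.21 ± 0.22 (0.169). The cytoplasmic actin Act42A stood at -1.002 ± 0.214 (adjusted p = 0.461). Higher values without a call included the acyl-CoA synthetase pdgy at 1.43 ± 0.34 (0.595) and mus205, the catalytic subunit of DNA polymerase zeta, at 1.72 ± 0.45 (0.729).

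Genes beside some of the called ones had values on the same side of 0, though none passed the test. Of the 39 nearest tested neighbours (up to 3 on each side), 0 passed the adjusted threshold and 6 had an unadjusted p under 0.05, against 292 of 8222 over all genes. Of these, 4 lay around CG9119. mwh, whose span covers CG9119 on the other strand, stood at -4.62 ± 1.34. With no strand information, reads may be shared where exons of these genes overlap, which was not examined. The lysozyme genes LysB, LysD and LysE stood at -2.43 ± 1.03, -2.82 ± 0.69 and -2.79 ± 0.71. The span of mwh also covers these lysozyme genes, so the 4 neighbours may not be independent signals. In D1, mwh, LysB, LysD and LysE stood at 4.88, 2.38, 1.86 and 2.09 against wild type. The value of LysE (± 0.66) was not called (adjusted p = 0.0772, edgeR), and the others are given without a test. The lysozyme genes are near-identical copies that may share reads, so their values are uncertain. CG4096, an ADAMTS-type metalloprotease gene that overlaps the end of CG33080 on the opposite strand, stood at 2.68 ± 0.63 (adjusted p = 0.604). CG16989, next to CG13360, stood at 1.17 ± 0.49 (adjusted p = 0.940). Within 100 kb, other tested genes with an unadjusted p under 0.05 numbered 6 of 12 around CG9119, 2 of 21 around ppk20, 1 of 15 around CG13360, 3 of 25 around CG33080, 0 of 4 around CR40469, 0 of 16 around tmod and 0 of 30 around nSyb. Not all lay on the side of the called gene: Sac1, near CG9119, stood at 0.75, and CG3097, near CG33080, at -0.47. Others farther off lay on the same side. Psf1 stood at -1.98, with its centre 43.3 kb from that of CG9119. CG4078 stood at 1.70, with its centre 36.7 kb from that of CG33080.

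**Figure D2:**
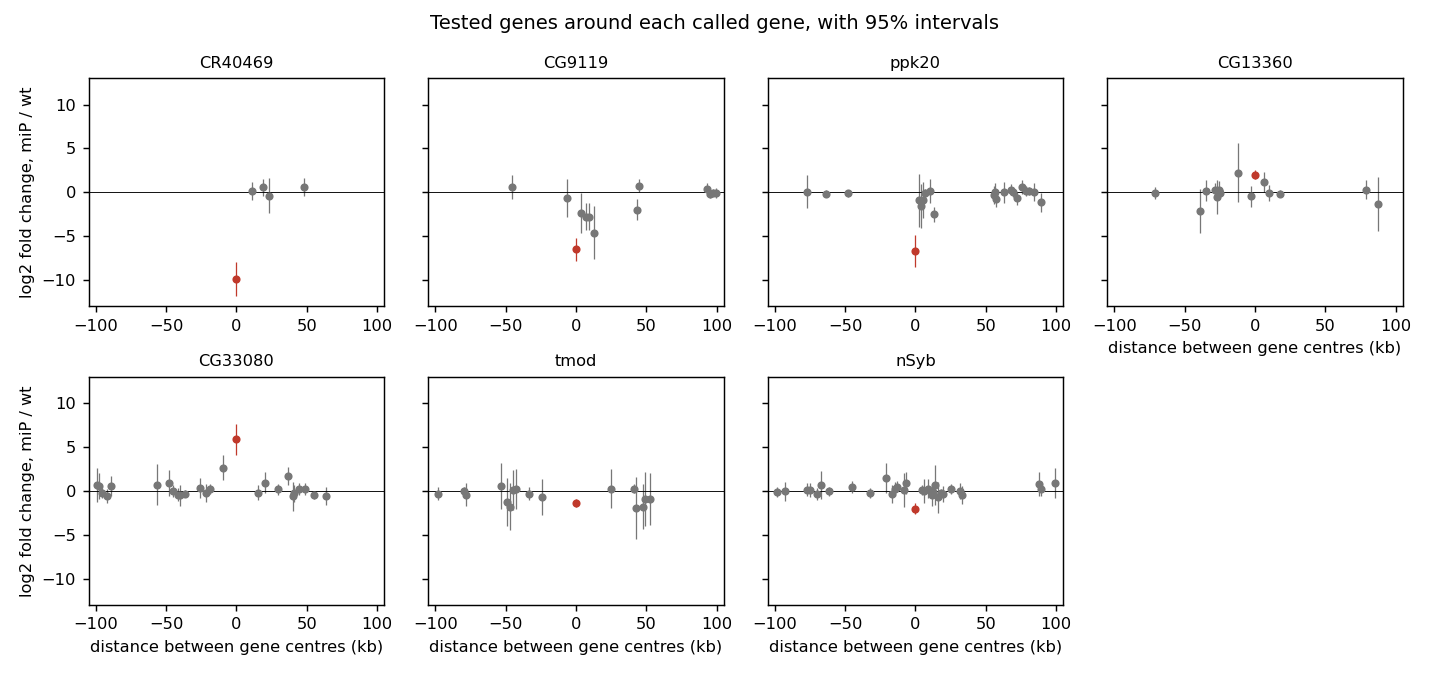
Log2 fold change of miP over wild type for tested genes within 100 kb of each called gene (red), plotted by the distance in kb between gene centres; bars are 95% intervals. Around CG9119 several grey points lie below 0 on one side, whereas the genes around tmod and nSyb scatter about 0.

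The secretory output of the cell was examined next, since a few secreted products fill most of the transcriptome. The 10 most abundant genes held 75.7, 76.3 and 77.0% of the counts in wild type and 76.0, 70.6 and 70.4% in miP. The first miP library lay within the wild-type range and the other two were lower. CG9029, of unknown function and the most abundant gene, counted 326600, 304400 and 320400 CPM in the wild-type libraries, against 319800, 157700 and 188800 in miP. This gave a log2 fold change of -0.67 ± 0.60 (adjusted p = 0.940), with 1 miP library at the wild-type level and the other two lower. Without miP replicate 1 and D1 replicate 1 it was -1.22 (adjusted p = 7.06e-04), and with a correction for transcript length the adjusted p was 0.165.

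In the fit of all 9 libraries none of the other abundant genes was called either. Acp32CD, an accessory gland protein, stood at 0.01 ± 0.25, and the Sex Peptide network proteins CG17575, lectin-46Cb and lectin-46Ca at -0.18 ± 0.26, 0.05 ± 0.23 and -0.14 ± 0.25. These proteins help females retain Sex Peptide. The intervals of these 4 genes lay within 1 log2 unit. The adhesion protein mfas stood at -0.03 ± 0.33, CG13965 at -0.51 ± 0.49 and Arc1, a capsid-forming protein, at -0.19 ± 0.26. The chaperone Hsp83 had 6383, 7087 and 5692 CPM in wild-type libraries, against 8265, 14430 and 11700 in miP libraries, without overlap, but 0.60 ± 0.27 did not pass (adjusted p = 0.940). CR41602, an rRNA pseudogene whose near-identical copies can share reads, stood at 0.14 ± 0.43. Without miP replicate 1 and D1 replicate 1, CG13965 was called lower (-0.96, adjusted p = 0.00431) and Hsp83 higher (0.69, adjusted p = 0.0193). With the length correction added, neither was called (adjusted p = 0.426 and 0.0585), whereas Acp32CD (0.50, adjusted p = 0.00841) and lectin-46Cb (0.52, adjusted p = 0.0179) were called higher.

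**Figure D3:**
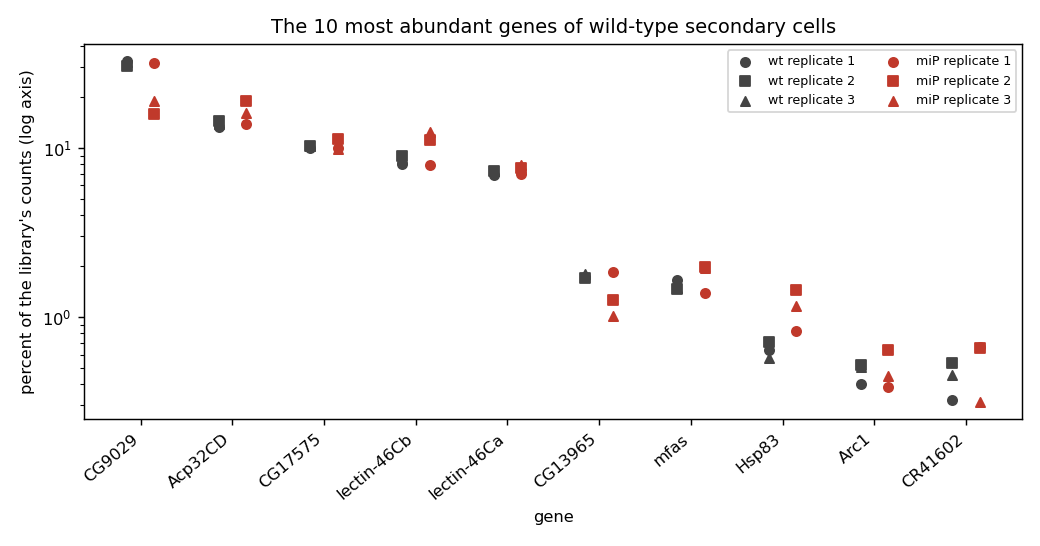
Percent of each library's counts, on a log axis, for the 10 genes most abundant in wild type; symbols separate the replicates and colours the genotypes. Replicate 1 of miP sits with wild type for CG9029 (319800 CPM), while replicates 2 and 3 are lower.

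Across 24 lists of genes for the functions of the cell, 2 members in all were called, nSyb among the SNARE, tethering and ESCRT genes (1 of 55) and ppk20 among ion channels and pumps (1 of 30); the background is 0.0851%. In the secretory pathway, 0 of 30 ER folding genes, 0 of 39 translocation and coat genes, 0 of 59 glycosylation genes and 0 of 27 Rab GTPases were called. Their median log2 fold changes were 0.16, -0.02, 0.24 and -0.18, beside -0.01 over all genes. The ER chaperone Crc (calreticulin) was at 0.13 ± 0.18, the oligosaccharyltransferase subunit OstStt3 at 0.34 ± 0.34 and Rab19, which is abundant in secondary cells, at -0.25 ± 0.31. The vacuolar proton pump subunits (0 of 18 called) had a median of -0.11.

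Regulators of the cell's identity were examined in the same way. Of 19 transcription factors and BMP pathway genes 0 passed in the fit of all 9 libraries (median 0.13, 14 with intervals within 1 log2 unit). The homeobox gene dve stood at 0.02 ± 0.36 and paired (prd), which accessory gland development needs, at 0.51 ± 0.38. Without miP replicate 1 and D1 replicate 1, prd was called higher at 0.68 (adjusted p = 0.0175), and with the length correction added at 0.57 (adjusted p = 0.0408). The microRNA pathway (0 of 10) had a median of -0.02, with AGO1 at 0.13 ± 0.20. Genes of protein synthesis, respiration and protein degradation had 0 calls among 85 cytosolic ribosomal proteins, 74 mitochondrial ones, 68 oxidative phosphorylation genes, 33 proteasome subunits and 61 translation factors and tRNA synthetases. Their medians were -0.30, -0.36, -0.34, -0.10 and -0.03. Stress chaperones (0 of 34) had a median of 0.19, with Hsp70Ba at 0.86 ± 0.30. Immediate early and JNK genes (0 of 16) had a median of -0.44. The 12 dominant secreted products had 0 calls and a median of -0.27, and 7 of their intervals lay within 1 log2 unit. They took 74.4, 74.6 and 75.6% of the counts in wild-type libraries, against 74.2, 67.9 and 68.4% in miP libraries, where replicate 1 was close to wild type and the other two lower. Without miP replicate 1 and D1 replicate 1, 4 of the 12 were lower and 0 higher, and with the length correction added 0 were lower and 2 higher. Over all genes tested, the first of these fits called 7.4% lower and 4.23% higher, and the second 2.19% and 2.1%. Among the lists left, 0 members of 10 Sex Peptide network genes (median -0.63), 26 septate junction and polarity genes (0.07), 11 basement membrane genes (0.35), 50 solute carriers (0.14), 26 replication and cell cycle genes (0.16) and 11 prohormone processing genes (0.24) were called. The Sex Peptide network includes genes that main cells express, and its median in each miP library was 0.01, 0.45 and -1.27 from the wild-type mean, while the wild-type libraries were -2.34, 0.72 and 1.46 from the other two.

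The 3 lists of shortest genes did not move alike in the miP libraries. Relative to the wild-type mean, the median ribosomal protein gene stood at 0.31, -0.55 and -0.98 in miP replicates 1, 2 and 3. Mitochondrial ribosomal proteins stood at 0.07, -0.50 and -0.68, and oxidative phosphorylation at 0.03, -0.48 and -0.84. Replicate 1 was at or above wild type and the other two below it. Without TMM scaling the ribosomal protein medians were 0.28, -0.24 and -0.60, while the median of all genes was -0.03, 0.30 and 0.35. As a share of counts the ribosomal proteins held 1.76, 1.81 and 1.74% in wild type and 2.15, 1.57 and 1.21% in miP. Mitochondrial ribosomal proteins held 0.0656, 0.0675 and 0.0654% in wild type and 0.0680, 0.0639 and 0.0585% in miP. The share of oxidative phosphorylation genes did not fall in the same way. It was 0.399, 0.413 and 0.400% in wild type and 0.405, 0.425 and 0.397% in miP.

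**Figure D4:**
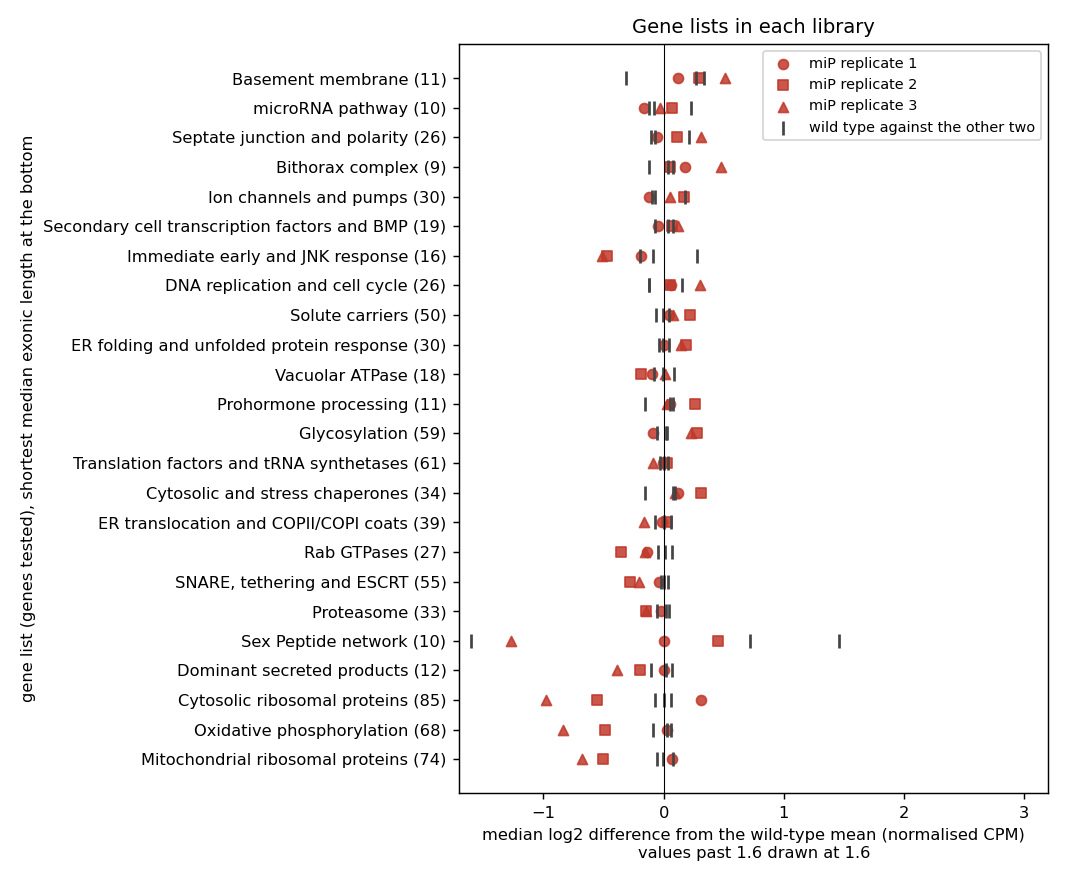
Median log2 difference from the wild-type mean (normalised CPM) of each gene list in each miP library (red symbols) and of each wild-type library against the other two (grey ticks); lists are ordered by the median exonic length of their genes. The 3 lists of shortest genes, at the bottom, lie near or above 0 in replicate 1 and between -0.48 and -0.98 in replicates 2 and 3.

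How much change the data leave for these functions was read from the intervals. The 95% interval lay within 1 log2 unit of no change for 3096 genes, or 37.7%. By wild-type level this held for 0.192% of genes under 1 CPM, 28.0% from 1 to 10, 62.5% from 10 to 100 and 58.5% at 100 or more. The estimate itself was within 1 log2 unit for 98.7% of genes from 10 to 100 CPM and 99.5% of the most abundant. For the translation factors 43 of 61 intervals were within this range, for ER folding 20 of 30, for the SNARE list 34 of 55, but for ribosomal proteins only 19 of 85 and for oxidative phosphorylation 19 of 68. For most ribosomal protein genes the intervals thus reach beyond 1 log2 unit.

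The miP libraries differed among themselves by transcript length. Over 8170 genes with an annotated length, Spearman's rho between the log2 fold change and exonic length was 0.376, a description across genes, which are not replicates. Measured per library against the mean of all 6, rho was -0.091, -0.308 and -0.366 in wild type and -0.241, 0.216 and 0.400 in miP. Replicate 1 of miP lay among the wild-type libraries and the other two above them. Over libraries the means were 0.125 ± 0.330 and -0.255 ± 0.145 (SD, n = 3 each), with an exact two-sided permutation p of 0.2, where 3 against 3 libraries cannot go below 0.1, so this test could not reach 0.05. In the class of shortest genes (30 to 1131 nt), the median difference from wild type was 0.06, -0.46 and -0.72 in miP replicates 1, 2 and 3. In the longest (4130 to 71820 nt) it was 0.00, 0.18 and 0.29. In D1, rho against the wild-type mean was 0.337 and 0.430 in replicates 2 and 3 and -0.352 in replicate 1.

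**Figure D5:**
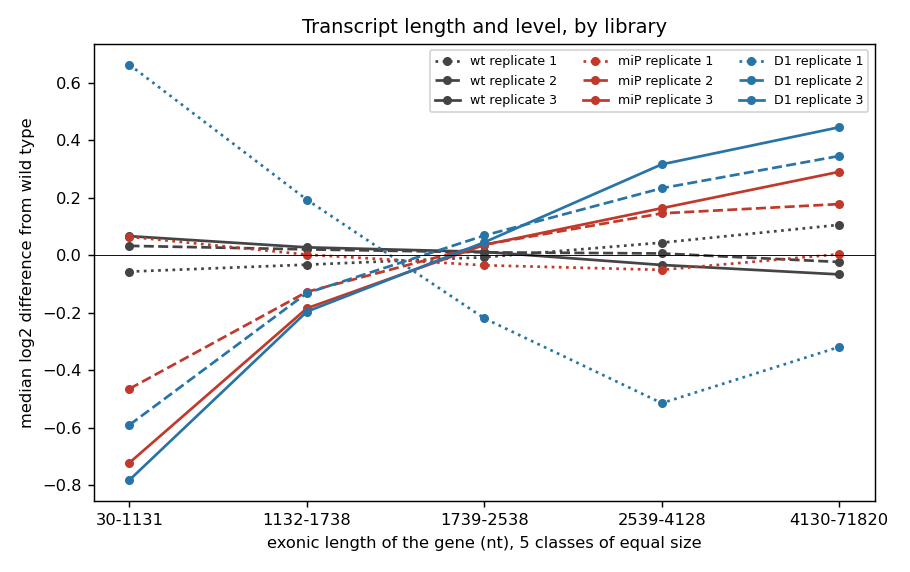
Median log2 difference in 5 classes of exonic length (nt) for each library, with colours for genotypes and line styles for replicates. The miP and D1 libraries are set against the wild-type mean, and each wild-type library against the mean of the other wild-type libraries. The line of miP replicate 1 stays between -0.05 and 0.06, while miP replicates 2 and 3 climb from -0.46 and -0.72 to 0.18 and 0.29.

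The number of genes called depended on replicate 1 of both mutants. Without miP replicate 1 alone 0 were higher and 2 lower, but without it and D1 replicate 1, whose length trend ran the other way, 361 of 8536 genes were higher (4.23%) and 632 lower (7.4%). The higher genes had a median exonic length of 3372 nt and the lower 933.5 nt, beside 2087 over all tested. With an offset for transcript length fitted per library, 179 were higher (2.1%) and 187 lower (2.19%), with medians of 2085 and 1860 nt, and 292 genes were called both ways. In the first of these fits, 50 of 86 ribosomal protein genes, 33 of 70 oxidative phosphorylation genes and 16 of 74 mitochondrial ribosomal proteins were lower. With the length offset the counts were 22, 7 and 0. Glycosylation genes had 14 of 59 higher and 1 lower without the offset and 8 and 0 with it. The labels give no batch for these libraries, and the cause of the length trend was not tested.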

How the data were processed

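RNA-seq counts per gene from 3 wild-type, 3 miP and 3 D1 libraries of sorted secondary cells were used, with the ribosome immunoprecipitations only for levels set beside one gene. The deposited values are whole-number counts that the authors made with STAR and HTSeq on dm6, per the submitters' processing notes; their versions are not given in the sources used. All columns were assigned to samples by their labels (0 unassigned). Of 16727 symbols, 12512 matched the annotation of Ensembl release 115 by name and 4010 by an older name, while 205 found no match.

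The 9 sorted libraries were fitted together with edgeR 4.0.16 in R 4.3.3 (quasi-likelihood F-test, TMM scaling, default expression filter), with Benjamini-Hochberg adjusted p of 0.05 or less over all 8222 genes. Each SE is the absolute log2 fold change over the square root of F, and 95% intervals use it. CPM are counts per 1000000 of the library total; normalised CPM also use the TMM factors. Length is the total of annotated exons. Amplified reads carry no molecular identifiers, so count intervals cover counting error only. Named genes were those past the threshold, the next by p with at least 5 CPM and no overlap (20 together), the Bithorax complex, the 10 most abundant, and the 2 most abundant and the lowest-p member of each list, with up to 5 genes in each direction from the fit without miP replicate 1; the text leaves out some. The members and the lists were chosen with earlier results of these data known. Alternatives were DESeq2 1.42.0, other scaling factors and filters, other sets of libraries, a length offset, a replicate block and a test against a 1 log2 threshold. Python 3.11.15 with pandas 2.3.3, numpy 2.4.6, scipy 1.17.1 and matplotlib 3.10.9 made tables and figures. The fit was run on simulated counts that had no length trend and no divergent replicate 1. That run therefore does not cover these features of the real libraries. No sequences are shown.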

Additional observations from a re-analysis of the deposited data

Results flagged for a closer look

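The effects of the mutants on 4 genes against the same wild-type libraries differed by a direct test of D1 minus miP (edgeR quasi-likelihood test), with the miP value below wild type and the D1 value above it. The difference was 9.76 on the log2 scale for CG9119 (adjusted p = 1.49e-05), 9.90 for the channel subunit ppk20 (5.03e-05) and 3.67 for nSyb (7.88e-05), with every D1 library above every wild-type library and every miP library below. For tmod it was 1.49 (adjusted p = 0.00116), but D1 was only 0.08 above wild type (adjusted p = 0.873), so a rise in D1 was not shown. The causes were not tested.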

How the results depend on the processing

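The counts of genes called in miP varied more than any fold change. With 2 higher and 5 lower as reported, RLE and upper-quartile factors each left 2 and 3, library totals alone 0 and 3, a test against a log2 fold change of 1 (treat) 0 and 3, and DESeq2 gave 9 and 24. With the replicate block 1 was higher and 3 lower; same-numbered wild-type and miP libraries deviated with r of 0.0065, 0.250 and -0.226, not every library correlated best with its own number, and the numbers were not taken as pairs; the block ended the calls of CG13360 (adjusted p = 0.0563), tmod (0.0962) and nSyb (0.0563). Replicate 1 did stand apart from replicates 2 and 3 by transcript length in both mutants. With single wild-type or miP libraries left out, 0 to 0 were higher and 0 to 3 lower. These fits had fewer samples and kept D1 replicate 1. Fitting only the wild-type and miP libraries gave 2 and 7. Leaving out D1 replicate 1 gave 5 and 11, and leaving out miP replicate 1 as well 361 and 632. Fitting wild type and miP alone without miP replicate 1 gave 262 and 522, and adding the length offset to the fit without both 179 and 187; these 2 fits and the one without D1 replicate 1 were chosen after seeing the data. The offset took rho with length to 0.0091, and to 6.436e-04 without both libraries; other settings gave 0.188 to 0.532. No fold change of the 7 called genes changed sign. All 13 libraries together ended the call of CR40469 (adjusted p = 0.197). Of 456 list medians under alternatives, 409 moved by less than the spread between replicates. Genes under 1 CPM had a median SE of 0.88, so changes there were mostly not detectable at this depth.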
